A study of Mus musculus with 12 samples.

Results

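The genes described here are 10 genes of zinc handling, read as the rows of the deposited count table that carry their symbols. They are the importers Slc39a4, Slc39a5, Slc39a8 and Slc39a14, the exporters and vesicle loaders Slc30a1, Slc30a5 and Slc30a10, the metallothioneins Mt1 and Mt2, and the zinc sensor Mtf1. All 10 are in the table, which lists 24421 genes, and all 10 passed the filter on low counts that left 13880 genes for testing. They were chosen because Slc39a4 was higher on ACR in LiK mice, so the diet difference in LiK is given for all 10 as a description with no test, and Slc39a4 is tested only where no LiK library enters the comparison. The libraries come from tumour-free liver of male mice aged 4 months. LiK and LiKM mice each received a normal diet, or a diet that held 0.06% of the acyclic retinoid ACR from 5 weeks of age, with 3 mice in each of the 4 groups. From what is known of the study, and not from the labels, LiKM mice differ from LiK mice in that they are meant to have no Mdm2, which marks p53 for degradation, in their hepatocytes. No source used here gives the allele or the promoter that drives the deletion.

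Zinc is a structural and catalytic part of many proteins, and free zinc inside cells is kept very low. Proteins of the Slc39 (ZIP) family move zinc into the cytosol from outside the cell or from vesicles, and proteins of the Slc30 (ZnT) family move it out of the cell or into vesicles. Metallothioneins are small cysteine-rich proteins that bind zinc and copper. The transcription factor Mtf1 senses cytosolic zinc and binds metal response elements, short motifs in the promoters of Mt1, Mt2 and Slc30a1. In liver, metallothioneins and Slc39a14 are also known to be induced in the acute phase of inflammation and, for the metallothioneins, by glucocorticoids. Several of the carriers take other metals as well. Slc39a8 and Slc39a14 carry manganese and iron, and Slc30a10 exports manganese from hepatocytes into bile.

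The promoters of 4 of the genes are shown because Mt1 and Mt2 varied together between libraries and because Slc30a1 and Slc30a10 were called in a strain comparison. Each line gives the 250 bases before the RefSeq transcription start on the gene's own strand (RefSeq, GRCm38, which is mm10), in lower case, with matches to the core of the metal response element in capitals. The core was searched as TGCACNC and TGCGCNC on both strands, so that a match on the other strand reads as its reverse complement. The windows are chr8:94178839-94179088 for Mt1, chr8:94172368-94172617 for Mt2, chr1:191906531-191906780 for Slc30a1 and chr1:185454598-185454847 for Slc30a10, all on the plus strand.
Mt1: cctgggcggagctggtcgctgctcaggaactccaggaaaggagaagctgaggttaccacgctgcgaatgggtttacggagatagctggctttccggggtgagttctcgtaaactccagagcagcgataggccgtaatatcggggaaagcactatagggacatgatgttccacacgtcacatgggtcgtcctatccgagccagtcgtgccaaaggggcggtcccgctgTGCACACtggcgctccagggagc
Mt2: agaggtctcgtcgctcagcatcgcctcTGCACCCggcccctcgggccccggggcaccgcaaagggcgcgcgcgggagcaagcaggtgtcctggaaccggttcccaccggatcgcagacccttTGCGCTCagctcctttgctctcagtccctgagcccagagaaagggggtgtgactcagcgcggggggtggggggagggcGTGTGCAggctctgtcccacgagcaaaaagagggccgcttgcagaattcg
Slc30a1: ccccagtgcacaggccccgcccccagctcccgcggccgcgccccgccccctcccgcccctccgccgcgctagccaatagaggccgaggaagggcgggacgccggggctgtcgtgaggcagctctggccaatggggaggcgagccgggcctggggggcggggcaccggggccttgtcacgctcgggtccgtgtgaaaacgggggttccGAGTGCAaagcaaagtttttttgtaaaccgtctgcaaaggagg
Slc30a10: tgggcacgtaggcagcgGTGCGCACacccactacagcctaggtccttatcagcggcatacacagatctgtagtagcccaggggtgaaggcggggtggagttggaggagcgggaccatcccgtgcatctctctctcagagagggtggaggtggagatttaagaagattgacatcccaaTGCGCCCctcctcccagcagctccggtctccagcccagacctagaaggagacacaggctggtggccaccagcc
The search covered 300 bases, from 250 before to 50 after each start, and 8 of the 10 genes had an entry. The Mt2 window held 4 matches, which 0.517% of all 32851 windows of that length reach or pass. The Mt1 and Slc30a10 windows held 3 each, reached by 1.97% of windows, and Slc30a10's first pair of matches overlap. The Slc30a1 window held 2 (7.11% of windows) and the Slc30a5 window 1 (25.7% of windows). Matches that lie at or past the start, 2 in Mt1, 1 in Mt2 and 1 in Slc30a1, are not printed. The Mtf1 window held 0, and the windows of the 2 starts listed for Slc39a5 and for Slc39a8 held 0 and 1 in each gene. A match describes the letters only. Each gene was searched at its listed starts alone, so elements beyond the 300 bases were not counted.

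Libraries held 10124813 to 18647156 counts, and albumin took 8.01 to 13.0% of them, so that hepatocyte RNA was present in every library. Mdm2, counted over the whole gene, stood at 21.6 to 25.8 CPM, counts scaled to a common library total, in the 6 LiK libraries and at 29.0 to 67.2 in the 6 LiKM libraries, a value that says nothing on a deletion of single exons. Markers of bile duct cells differed between strains, with 8 of 8 called higher in normal-diet LiKM livers and 7 of 8 on ACR. Genes of the circadian clock set LiKM ACR 2, LiKM ACR 3 and LiKM normal diet 3 apart, and no source used here gives the hour of collection. Values without these 3 libraries are given for the calls and the larger differences below. Clock genes also separated the diets in LiK. Of 13, 6 lay wholly higher and 4 wholly lower in ACR-fed LiK livers, beside 13.4% and 14.6% of all genes. In the fit of all 12 libraries 0 of the 13 were called, and 27 of all 13880 genes. With only the groups compared 812 genes were called, so nothing is read from the 0. Mean Dbp was 31.1 CPM in normal-diet LiK livers and 137 in ACR-fed ones, and mean Arntl 6.05 and 1.11. Leaving out LiKM libraries does not remove this difference. Its part in the LiK diet differences, the ACR strain differences and the interactions below was not tested. Messenger RNA of pancreatic acinar cells was found in LiK ACR 3, where 6 acinar genes summed to 26.1 CPM against 0.0 to 0.493 in the other 11 libraries. All values below are CPM scaled with TMM factors, with group levels as mean ± SD over 3 libraries of separate mice.

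Levels between genes were compared per kilobase of exon, since longer messages give more counts. The length joins all annotated exons of a gene, so the level is a low estimate where shorter transcripts prevail. Over the 12 libraries Slc39a14, the main zinc importer of the inflamed liver, was highest at 27.2 CPM per kilobase, followed by Mt2 at 24.7 and Mt1 at 21.1. The metallothionein means rest on LiKM normal diet 1, and without it they were 15.7 for Mt2 and 16.1 for Mt1. The exon length of Mt1, 1.246 kilobases, equals its whole span in the annotation, so that its introns count as exon and its level per kilobase is a low estimate beside that of Mt2. Slc39a4, known best for zinc uptake in the gut, came next at 15.4 CPM per kilobase. Slc30a10 (9.74), Slc30a1 (8.73) and Slc30a5 (5.08 CPM per kilobase) formed the middle of the order. Slc39a8 at 2.63 and Mtf1 at 2.5 CPM per kilobase were lower. Slc39a5 was lowest at 0.222 CPM per kilobase, with 2 to 13 counts in a library. The SD over the 12 libraries was 5.14 for Slc39a14, 34.7 for Mt2, 21.5 for Mt1, 7.16 for Slc39a4, 3.53 for Slc30a10, 1.64 for Slc30a1, 0.608 for Slc39a8 and 0.374 for Mtf1, so that neighbours from Slc39a14 down to Slc30a1, and Slc39a8 beside Mtf1, differed by less than the larger of their SDs. The gaps between Slc30a1 and Slc30a5, between Slc30a5 and Slc39a8 and between Mtf1 and Slc39a5 were wider than either SD. The order changed with the group. In normal-diet LiK livers Slc39a4 stood at 5.21 ± 1.68 CPM per kilobase, below Slc30a1 at 11.2 ± 0.899 and Slc30a10 at 11.6 ± 2.34. In the other 3 groups it stood above both, at 14.6 ± 1.83 in ACR-fed LiK livers, 18.4 ± 2.82 in normal-diet LiKM livers and 23.3 ± 1.84 in ACR-fed LiKM livers.

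**Figure D1:**
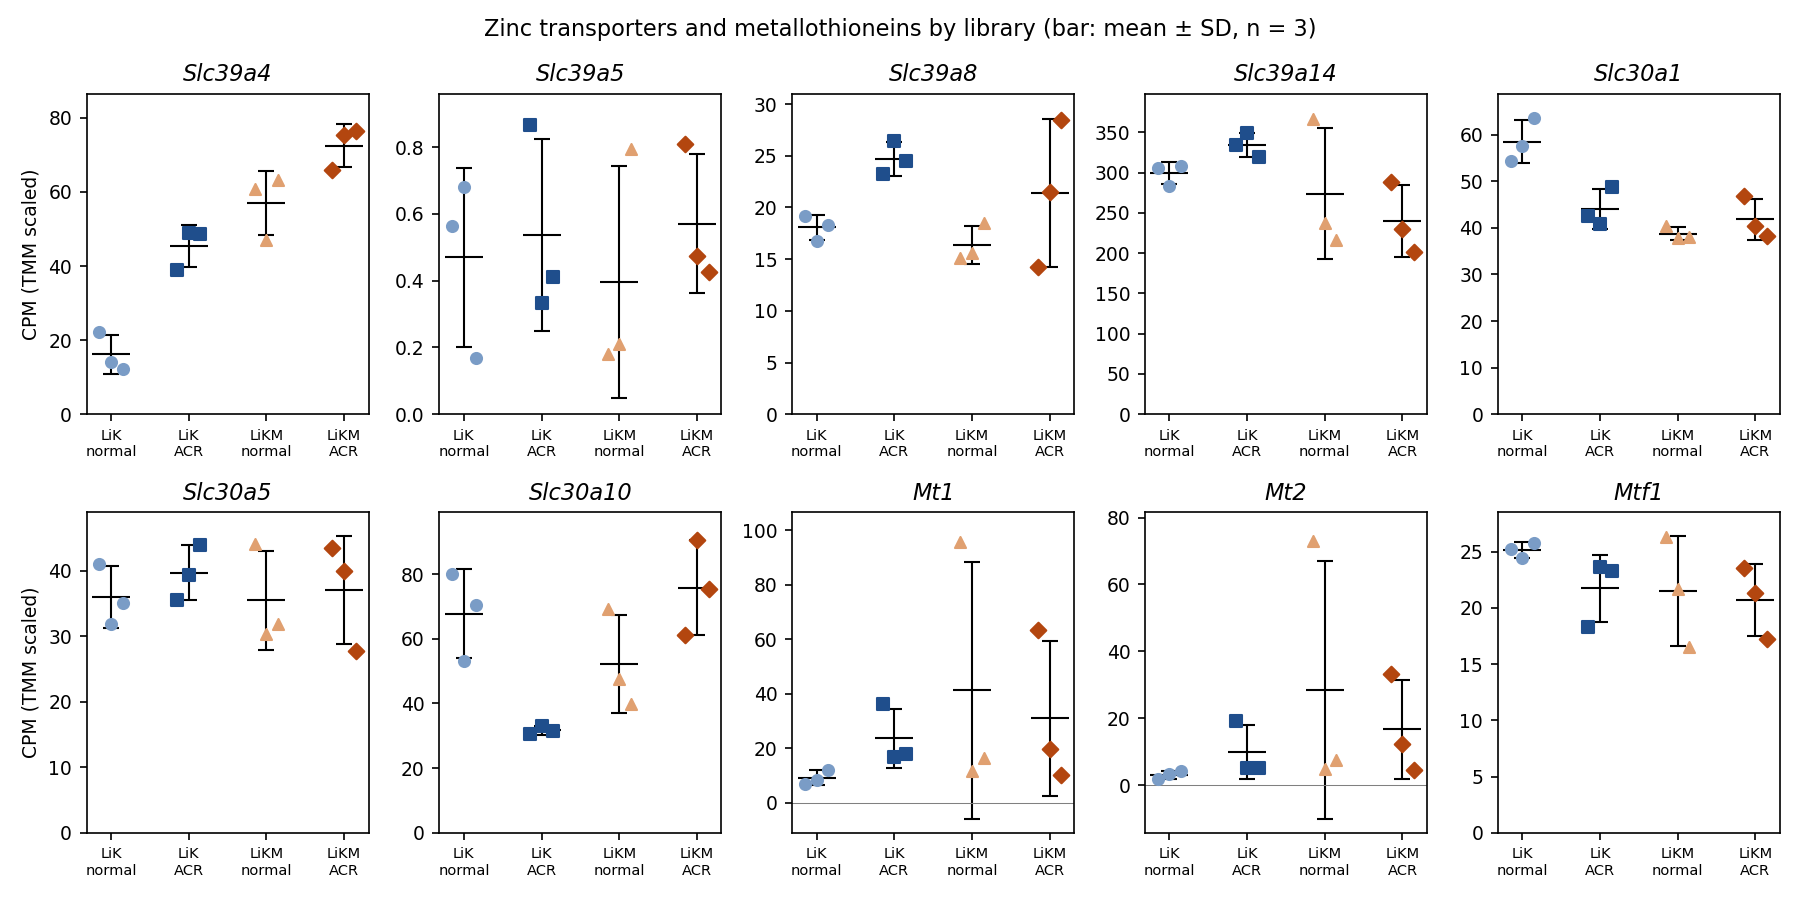
Level of each of the 10 genes in each library (y axis, CPM, 1 scale per gene, from 0, or from below it where an error bar reaches there) by strain and diet (x axis); points are the 3 libraries of a group and bars the mean ± SD. Slc39a4 goes from 12.3 to 22.1 CPM in normal-diet LiK livers to 65.9 to 76.4 in ACR-fed LiKM livers, Slc30a10 is at 30.4 to 33.1 in ACR-fed LiK livers and at 39.8 to 90.6 elsewhere, and Mt1 and Mt2 are each high in 1 library of 3 groups.

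The strains were first compared among mice that had received no ACR. Slc30a1, the exporter of the plasma membrane, was lower in LiKM, and it was the 1 gene called among the 9 tested. Across all genes 21.8% were called in this comparison by the quasi-likelihood test of edgeR at a Benjamini-Hochberg adjusted p of 0.05, 13.2% higher and 8.61% lower, so that a share of 1 in 9 is below the background. All 3 LiKM libraries lay above all 3 LiK libraries for Slc39a4 and Mt2 and below them for Slc30a1. That is 2 genes higher and 1 lower of 10, where 20.7% and 19.4% of all genes, 40.1% together, separated in this way. The median of the 10 log2 fold changes was -0.13, against 0.02 over the whole table.

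The strains were then compared among mice that had received ACR. Here Slc30a10, the manganese exporter, was higher in LiKM and was the 1 gene called among 9 tested, where 9.79% of all genes were called, 5.55% higher and 4.24% lower, a share near that of 1 in 9. Libraries of the strains did not overlap for Slc39a4 and Slc30a10, both higher in LiKM, and for Slc39a14, lower in LiKM. The background shares for such separation were 17.2% higher and 16.0% lower, 33.3% together. The median of the 10 genes was 0.01, against 0.02 for all genes.

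Within LiKM the diet comparison asks what the drug changes in that strain, and 0 of the 10 genes were called. The background is also 0.0%, since edgeR called 0 of 13880 genes, with 1005 at an unadjusted p under 0.05 and 79 called by DESeq2. Slc39a4 was the 1 gene whose ACR libraries all lay above the normal diet libraries, and 3.94% of all genes did so. No gene of the 10 lay wholly lower, against 6.7% of all genes. The median of the 10 was 0.08, against -0.01.

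In LiK, the comparison from which the genes were chosen, Slc39a4, Slc39a8, Slc39a14, Mt1 and Mt2 were higher on ACR in every library and Slc30a1, Slc30a10 and Mtf1 lower in every library. These are 5 and 3 of 10 genes, beside 13.4% and 14.6% of all genes, 28.1% together, and nothing is read from these counts. The share of all genes called in this comparison was 0.195%, with 0.13% higher and 0.0648% lower. For the strain by diet interaction, which is the diet difference in LiKM minus that in LiK, 0 of 9 genes were called and 0.0072% of all genes. That share is 1 gene, with 1593 at an unadjusted p under 0.05 and 160 called by DESeq2. Both diet comparisons share their libraries with the strain comparisons, so the values of a gene in the 4 comparisons are not independent of each other.

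**Figure D2:**
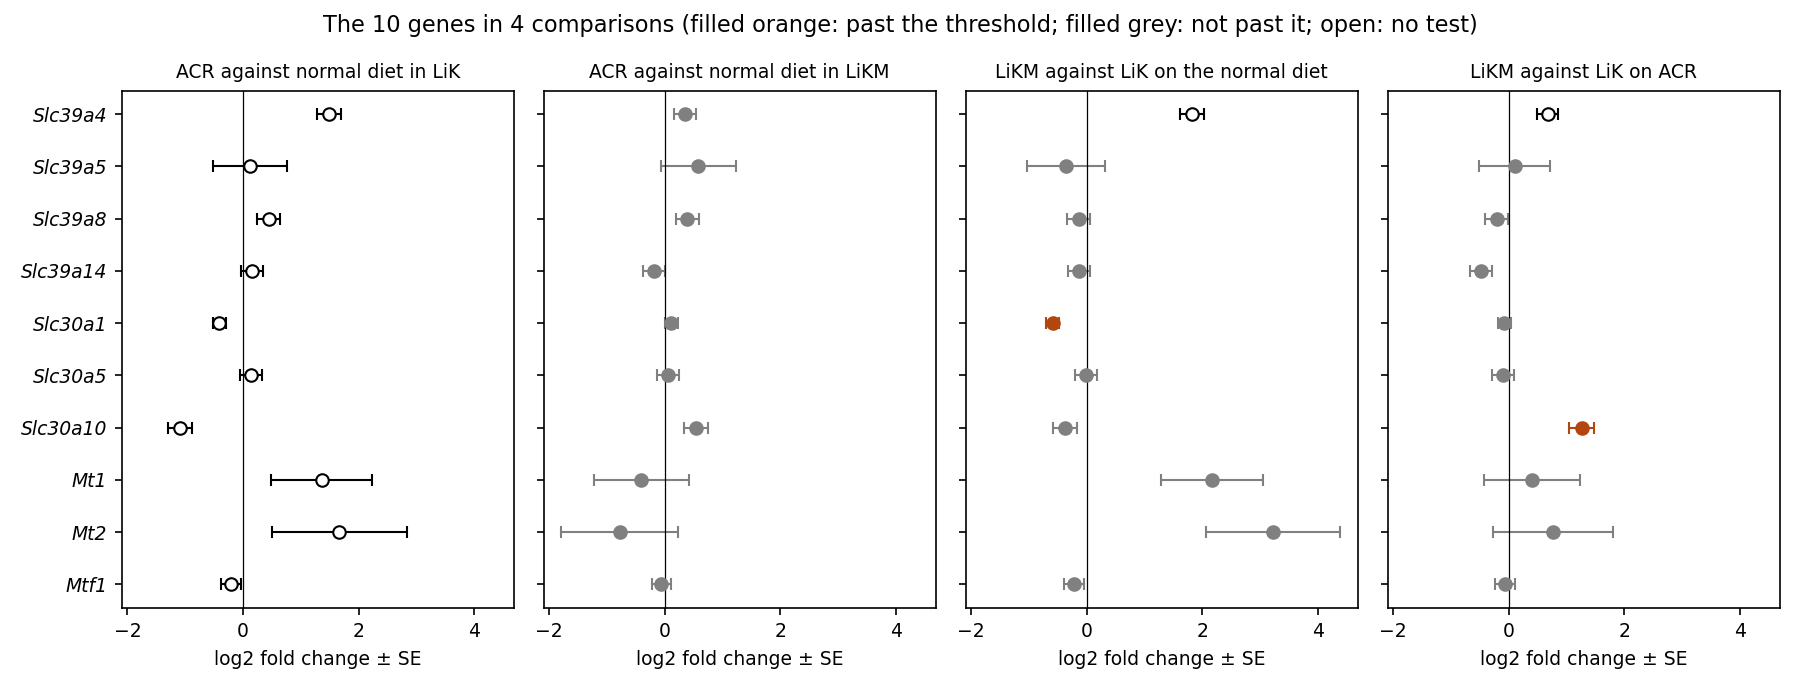
Log2 fold change ± SE (x axis) of the 10 genes (y axis) in the diet comparison within each strain and the strain comparison on each diet; orange points passed the test, grey points did not, and open points have no test. Slc30a1 at -0.59 on the normal diet and Slc30a10 at 1.26 on ACR are the 2 orange points, and the bars of Mt1 and Mt2 are the widest.

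Slc39a4 (mm10, chromosome 15, 76612383 to 76617384, minus strand) encodes ZIP4, a zinc importer of the plasma membrane. Normal-diet LiK livers held 22.1, 14.1 and 12.3 CPM and ACR-fed LiK livers 38.9, 48.9 and 48.6. The LiKM values were 60.8, 47.1 and 63.3 CPM without ACR and 65.9, 75.3 and 76.4 with it. The lowest group was thus normal-diet LiK, whose 3 libraries lay below the other 9, and the highest was ACR-fed LiKM, whose 3 libraries lay above the other 9. The middle groups, ACR-fed LiK at 45.5 ± 5.67 CPM and normal-diet LiKM at 57.0 ± 8.75, overlapped at 47.1 to 48.9. As a description, Slc39a4 was 2.81-fold higher on ACR in LiK (log2 1.49, SE 0.2). It was 3.52-fold higher in LiKM than in LiK without ACR (log2 1.82, SE 0.2) and 1.59-fold with it (log2 0.67, SE 0.19). Without LiK normal diet 1, its highest library in that group, the diet difference in LiK was 1.78 and the strain difference 2.10 on the log2 scale. The prefix of the sample identifiers divides this group, with KM in LiK normal diet 1 and MP in LiK normal diet 2 and 3. Of the other libraries only LiKM ACR 3 carries MP, and no source used here says what the prefix marks.

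Within LiKM, the strain that did not choose the gene, the ACR libraries of Slc39a4 lay above the normal diet libraries, at 72.5 ± 5.73 against 57.0 ± 8.75 CPM. The difference of 1.27-fold did not pass the test (log2 0.35, SE 0.19, edgeR adjusted p = 0.795), nor did the 0.30 left without the 3 libraries of differing clock genes (edgeR adjusted p = 0.881). The diet difference in LiKM was smaller than in LiK by 1.14 on the log2 scale (SE 0.28), a value given without a test because LiK enters it. With the identifier prefix as a term this interaction was -0.86. Markers of bile duct cells moved with the strain as Slc39a4 did. The 8 markers summed to 54.4 to 68.6 CPM in normal-diet LiK livers, 51.9 to 205 in ACR-fed LiK livers, 597 to 1050 in normal-diet LiKM livers and 345 to 548 in ACR-fed LiKM livers, with none at 0 in a whole group. Their sum was thus lower on ACR than on the normal diet in every LiKM library, while Slc39a4 was higher, and their part in the strain difference was not tested. Neutrophil markers also moved with the strain, with 3 of the 3 tested, of 5 listed, called higher in LiKM on both diets. The 4 in the table summed to 1.76 to 4.24, 6.24 to 8.06, 9.66 to 12.6 and 14.2 to 21.5 CPM in the same order of groups. T and NK cell markers had 5 of 6 called higher on the normal diet and 2 of 6 on ACR, with sums of 0.837 to 1.41, 1.87 to 4.05, 4.56 to 11.1 and 8.27 to 17.6 CPM. The groups rise in the same order in both lists as in the means of Slc39a4, and the part of these cells was not tested. In bulk liver a gene's level in fewer or more cells of a type and its level per cell cannot be told apart. Of 5 enterocyte markers, Sis was at 0 in all 12 libraries, Alpi had at most 4 counts, Lct at most 2 and Vil1 at most 2.49 CPM, while Fabp2 had 76.8 to 128 CPM in every library.

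The 5 genes with a pattern most like that of Slc39a4, by Pearson correlation of log2 CPM over the 12 libraries among 11936 genes, were Cap1 (r = 0.953), Mob3a (0.932), Rassf4 (0.928), Sectm1a (0.927) and Psd4 (0.923). The 12 libraries share the 4 groups, so these values describe the same group differences. Mob3a had group means of 3.07, 6.1, 8.31 and 7.67 CPM, and Psd4 of 2.95, 8.16, 9.15 and 9.17, in the order LiK normal diet, LiK ACR, LiKM normal diet, LiKM ACR. Both were lowest in normal-diet LiK livers, as Slc39a4 was. Cap1 had 67.9, 78.5, 78.4 and 83.7 CPM and so varied far less in size.

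Slc39a14 (chromosome 14, 70303469 to 70351425, minus strand) encodes ZIP14, the carrier that brings zinc, iron and manganese into hepatocytes. Normal-diet LiK livers held 306, 284 and 308 CPM and ACR-fed LiK livers 334, 349 and 319. LiKM livers held 367, 237 and 217 CPM without ACR and 289, 230 and 201 with it. LiK libraries kept within 284 to 349 CPM, while LiKM normal diet 1 held the highest value and LiKM ACR 3 the lowest. On ACR every LiKM library lay below every LiK library, by 1.39-fold (240 ± 45.0 against 334 ± 15.1 CPM, log2 -0.48, SE 0.19, edgeR adjusted p = 0.124). That difference was called with the LiKM mice blocked by number (log2 -0.49, edgeR adjusted p = 0.00583) and, at -0.49, without LiKM normal diet 1 (edgeR adjusted p = 0.045). The block leaves the spread between LiKM numbers out of the error. With the 3 libraries of differing clock genes left out the difference was -0.22, with LiKM ACR 1 alone in its group. That library, at 289 CPM, was the highest of ACR-fed LiKM. Over all alternatives the log2 difference ran from -0.635 to -0.217. On the normal diet the strains differed by -0.13 (SE 0.19, edgeR adjusted p = 0.672), and the diets in LiKM by -0.19 (edgeR adjusted p = 0.928). In LiK, ACR libraries were 1.12-fold higher as a description.

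Slc39a8 (chromosome 3, 135825279 to 135888572, plus strand) encodes ZIP8, which takes up zinc, manganese and cadmium. Normal-diet LiK livers held 19.2, 16.8 and 18.3 CPM and ACR-fed LiK livers 23.2, 26.4 and 24.5, with no overlap and a 1.37-fold difference that is described only. Among LiKM livers the values were 15.1, 15.6 and 18.5 CPM without the drug and 14.2, 21.5 and 28.5 with it. The ACR libraries of LiKM held both the lowest and the highest value of all 12, so that the 1.31-fold diet difference there did not pass (log2 0.39, SE 0.2, edgeR adjusted p = 0.759). The strains differed by log2 -0.14 on the normal diet (edgeR adjusted p = 0.651) and -0.21 on ACR (edgeR adjusted p = 0.537). The difference on ACR was called with the 3 libraries of differing clock genes left out, which leaves LiKM ACR 1 alone in its group (log2 -0.81, edgeR adjusted p = 0.0237). That lone library is then assumed to vary as the other groups do, and over all alternatives the adjusted p ran from 0.0237 to 0.961.

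Slc39a5 (chromosome 10, 128395931 to 128401229, minus strand) encodes ZIP5, an importer of gut, pancreas and liver. It had 0.564, 0.679 and 0.167 CPM in normal-diet LiK livers, 0.865, 0.333 and 0.412 on ACR, while LiKM livers held 0.18, 0.211 and 0.795 CPM without ACR and 0.809, 0.475 and 0.427 with it. All 4 groups overlapped, and the adjusted p-values of edgeR ran from 0.744 to 0.946. With 2 to 13 counts a library, the fitted differences had SEs of 0.62 to 0.67 on the log2 scale in the strain and diet comparisons. LiK ACR 3, the library with acinar RNA, had 0.412 CPM and did not stand apart.

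Among the exporters, Slc30a1 (chromosome 1, 191906767 to 191913247, plus strand) encodes ZnT1, which moves zinc out through the plasma membrane and is a known target of Mtf1. Normal-diet LiK livers held 54.4, 57.5 and 63.6 CPM and ACR-fed LiK livers 42.5, 40.8 and 48.8. The LiKM values were 40.4, 37.9 and 38.0 CPM without ACR and 46.8, 40.3 and 38.3 with it. Normal-diet LiK was the highest group, with all 3 libraries above the other 9, and those 9 lay between 37.9 and 48.8 CPM. On the normal diet Slc30a1 fell 1.51-fold in LiKM, with 58.5 ± 4.72 CPM in LiK and 38.8 ± 1.43 in LiKM (log2 -0.59, SE 0.11, edgeR adjusted p = 0.00406). With library size alone as scaling the difference was -0.20 and did not pass (edgeR adjusted p = 0.208). That scaling moved the median difference of the whole table to 0.405, so that Slc30a1 was lower than the typical gene under both. Without the 3 libraries of differing clock genes it was -0.60 (edgeR adjusted p = 0.00845). Over the 21 alternatives its adjusted p ran from 3.84e-05 to 0.208.

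On ACR the strain difference in Slc30a1 did not pass (log2 -0.08, SE 0.11, edgeR adjusted p = 0.696), nor did the diet difference within LiKM (0.11, SE 0.11, edgeR adjusted p = 0.932). In LiK the gene was 1.33-fold lower on ACR, as a description. The interaction was 0.52 (SE 0.15, edgeR adjusted p = 0.27). Normal-diet LiK was thus the highest group in Slc30a1 and the lowest in Slc39a4. Hepatocyte markers moved with Slc30a1 on the normal diet, where 3 of 8 (Ttr, Ass1 and Tdo2) were called lower in LiKM and all 8 lay below 0. Their summed level was 115000 to 162000 CPM in normal-diet LiK livers, 144000 to 157000 in ACR-fed LiK livers, 87300 to 98200 in normal-diet LiKM livers and 120000 to 156000 in ACR-fed LiKM livers, and their part was not tested.

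Slc30a10 (chromosome 1, 185454848 to 185468762, plus strand) encodes ZnT10, which exports manganese. Normal-diet LiK livers held 79.9, 53.0 and 70.5 CPM and ACR-fed LiK livers 30.4, 33.1 and 31.6. LiKM livers held 69.1, 47.6 and 39.8 CPM without ACR and 61.3, 90.6 and 75.4 with it. The 3 LiK libraries on ACR were the lowest of the 12 and lay close together, and the other 3 groups overlapped. In LiK the gene was 2.14-fold lower on ACR, as a description. In LiKM the ACR libraries averaged higher, at 75.8 ± 14.7 against 52.2 ± 15.2 CPM, without passing (log2 0.54, SE 0.21, edgeR adjusted p = 0.576). On ACR Slc30a10 rose 2.39-fold in LiKM against LiK (75.8 ± 14.7 against 31.7 ± 1.34 CPM, log2 1.26, SE 0.21, edgeR adjusted p = 0.00735). On the normal diet the strains overlapped (log2 -0.38, SE 0.21, edgeR adjusted p = 0.22), though the difference was called without LiKM normal diet 1 (-0.64, edgeR adjusted p = 0.0466).

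The diet difference of Slc30a10 in LiKM exceeded that in LiK by 1.63 on the log2 scale (SE 0.3) and did not pass (edgeR adjusted p = 0.0906). It was called by DESeq2 (1.63, adjusted p = 0.000479), with the LiKM mice blocked by number (1.65, edgeR adjusted p = 0.032) and with LiKM normal diet 1 left out (1.88, edgeR adjusted p = 0.049). Without the 3 libraries of differing clock genes it was 1.18 (edgeR adjusted p = 0.188). Over all its alternatives the adjusted p ran from 0.000479 to 0.282. Since ACR-fed LiK enters this value and the genes were chosen on LiK, it is the same libraries that set it and the diet difference in LiK.

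Genes of the circadian clock differed between the groups in which Slc30a10 differed. Dbp, whose mRNA follows the clock, stood at 35.9, 25.6 and 31.8 CPM in normal-diet LiK livers and at 139, 137 and 136 in ACR-fed ones. Among LiKM livers the values were 8.46, 25.6 and 74.0 CPM without the drug and 15.4, 3.25 and 3.54 with it. The group lowest in Slc30a10 was thus the group highest in Dbp, and within LiKM the 6 libraries had the reverse order in both genes. Over those 6 libraries Pearson's r of log2 CPM was -0.975 (exact permutation p = 0.00139) and Spearman's rho -1.0 (exact permutation p = 0.00278). Among the 130 pairs of the 10 genes with 13 clock genes 0 passed after adjustment, with 0.0903 and 0.12 for this pair. With 6 libraries these exact p-values are the lowest that can occur. A lone pair that reached them could not pass over 130 pairs, so nothing is read from the 0. Without the 2 libraries farthest in Dbp, r was -0.934. The p-values of r and rho treat the 6 libraries as exchangeable, although same-numbered LiKM mice of the 2 diets deviated together (correlations of 0.37, 0.22 and 0.48). Both r and rho also pool the 2 diets. On ACR the LiKM mean was lower in Dbp (7.41 against 36.0 CPM) and higher in Slc30a10 (75.8 against 52.2 CPM). The values thus mix the diet difference with variation between mice within a diet. Dbp was picked after its values were seen, and the 13 clock genes differed widely, with r of -0.987 for Nr1d2 and 0.873 for Clock but -0.29 for Ciart, 0.0148 for Per1 and 0.0012 for Per2. In normal-diet LiK livers the order was the opposite, with the highest Slc30a10 in the library of highest Dbp. On ACR 6 of 13 clock genes were called between the strains, Dbp, Nr1d2, Ciart and Bhlhe41 lower and Arntl and Npas2 higher in LiKM. With the 3 LiKM libraries of differing clock genes left out the strain difference of Slc30a10 on ACR was 0.94 (edgeR adjusted p = 0.0615), with LiKM ACR 1 alone in its group. Over its alternatives that difference had an adjusted p of 6.33e-06 to 0.0615.

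**Figure D3:**
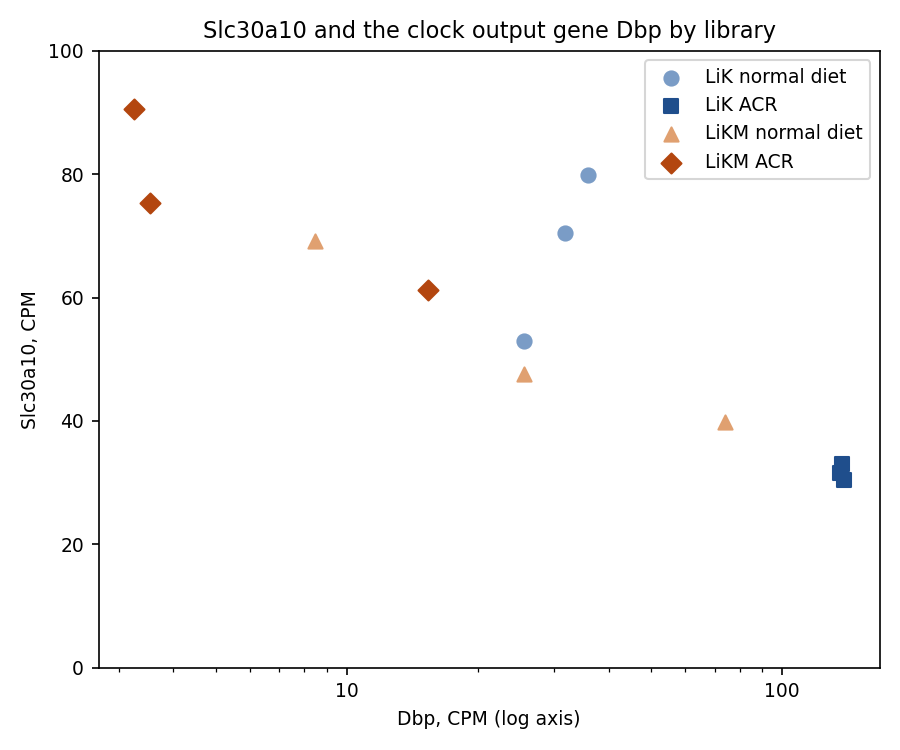
Level of Slc30a10 (y axis, CPM) against Dbp (x axis, CPM, log axis) in each of the 12 libraries, with colour and shape giving the group. The 3 LiK libraries on ACR lie together at 136 to 139 CPM of Dbp and 30.4 to 33.1 of Slc30a10, the 6 LiKM libraries fall from upper left to lower right, and the 3 LiK libraries on the normal diet rise.

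Slc30a5 (chromosome 13, 100802648 to 100833427, minus strand) encodes ZnT5, which loads zinc into the early secretory pathway. Normal-diet LiK livers held 41.1, 31.8 and 35.1 CPM and ACR-fed LiK livers 35.6, 39.4 and 44.0. The LiKM values were 44.1, 30.4 and 31.9 CPM without ACR and 43.5, 39.9 and 27.7 with it. All 4 groups overlapped, with means of 35.4 to 39.7 CPM. The log2 differences were -0.02 and -0.10 between strains and 0.06 for the diet in LiKM, each with an SE of 0.19 (edgeR adjusted p = 0.951, 0.773 and 0.991).

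Mt1 and Mt2 lie next to each other on chromosome 8 (94179082 to 94180327 and 94172664 to 94173568, both plus strand) and encode the metallothioneins of liver. Mt1 stood at 6.97, 8.54 and 12.2 CPM in normal-diet LiK livers and at 36.1, 17.0 and 17.9 in ACR-fed ones. LiKM livers held Mt1 at 95.6, 11.7 and 16.4 CPM without ACR and 63.4, 19.6 and 10.2 with it. Mt2 had 1.76, 3.23 and 4.27 CPM, then 19.2, 5.19 and 5.08, in the same groups of LiK, and 72.9, 4.79 and 7.64, then 33.2, 12.4 and 4.64, in those of LiKM. Each of the 3 groups other than normal-diet LiK held 1 library well above its other two, LiK ACR 1, LiKM normal diet 1 and LiKM ACR 1, and these were the same libraries for both genes. Normal-diet LiK was lowest on average in both, and its libraries lay below all others in Mt2 but overlapped LiKM in Mt1.

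**Figure D4:**
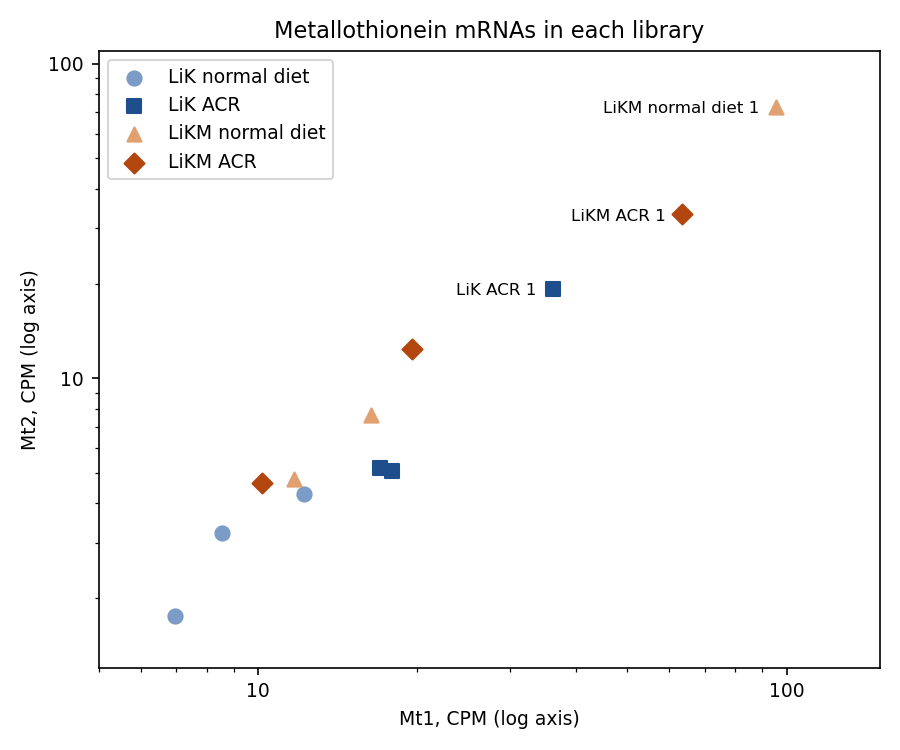
Mt2 (y axis, CPM, log axis) against Mt1 (x axis, CPM, log axis) in each of the 12 libraries, with colour and shape giving the group. The points rise together from 6.97 CPM of Mt1 and 1.76 of Mt2 to 95.6 and 72.9, and the 3 libraries named on the plot, 1 from each of 3 groups, lie above the rest.

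Between the strains on the normal diet Mt1 was 4.5-fold and Mt2 9.34-fold higher in LiKM, and neither passed (log2 2.17, SE 0.88, edgeR adjusted p = 0.107, and log2 3.22, SE 1.16, edgeR adjusted p = 0.0739). Both differences rest largely on LiKM normal diet 1. Without it they were 0.60 and 1.01 on the log2 scale (edgeR adjusted p = 0.576 and 0.454). Mt1 was called with the LiKM mice blocked by number (1.57, edgeR adjusted p = 0.0219), and in that fit the spread between LiKM numbers is left out of the error. Mt2 was called by DESeq2 (3.2, adjusted p = 0.0156), with library size alone (3.59, edgeR adjusted p = 0.0437) and with LiKM normal diet 2 left out (3.72, edgeR adjusted p = 0.0467). Over all alternatives the adjusted p ran from 0.0219 to 0.576 for Mt1 and from 0.0156 to 0.454 for Mt2. On ACR the strains differed by 0.40 in Mt1 (SE 0.83, edgeR adjusted p = 0.799) and 0.77 in Mt2 (SE 1.04, edgeR adjusted p = 0.675), and without LiKM ACR 1 they turned to -0.67 and -0.21. The diet differences in LiKM were -0.41 and -0.78 (edgeR adjusted p = 0.982 and 0.956) and turned to 1.17 and 1.46 without LiKM normal diet 1. In LiK both genes were higher on ACR in every library, 2.57-fold and 3.19-fold, as a description.

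Together Mt1 and Mt2 made 8.73 to 16.5 CPM in normal-diet LiK livers, 22.2 to 55.2 in ACR-fed LiK livers, 16.5 to 168 in normal-diet LiKM livers and 14.9 to 96.6 in ACR-fed LiKM livers. Counts of Mt2 per count of Mt1 ran from 0.253 to 0.377 in normal-diet LiK livers and from 0.41 to 0.763 in the LiKM libraries. In ACR-fed LiK livers the ratio was 0.532 in the high library and 0.305 and 0.284 in the others. The 5 genes most like Mt1 over the 12 libraries, outside the 10 genes, were Prmt1 (r = 0.898), Serinc4 (0.886), Itgb3 (0.875), Nes (0.863) and Creld1 (0.859). The group means of Prmt1 spanned 12.1 to 14.1 CPM, a far smaller range than that of Mt1.

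Genes of the acute phase were set beside the metallothioneins. Steap4, a metalloreductase induced in inflammation, was highest in LiKM normal diet 1 at 367 CPM, followed by LiKM ACR 1 at 280, and the other 10 libraries held 89.7 to 193, with 162 in LiK ACR 1. Lcn2, a secreted iron carrier of the acute phase, had 235 and 369 CPM in the same 2 LiKM libraries, 71.7 to 90.2 in the other 4 of LiKM and 11.4 to 57.0 in LiK, where LiK ACR 1 had 49.6. Saa2, an acute phase apolipoprotein, had 274, 227 and 102 CPM in LiKM normal diet 1, LiKM ACR 1 and LiK ACR 1. Among the other libraries LiK normal diet 2 and 3, with low metallothioneins, had 131 and 117 CPM of Saa2. Of 16 acute phase genes 1, Lcn2, was called, higher in normal-diet LiKM livers (6.04-fold, edgeR adjusted p = 0.0401). Steap4, Lcn2 and Saa2 were picked after their values were seen. They and Il1r1 are the 4 of 16 genes whose highest values lay in the 2 LiKM libraries highest in the metallothioneins. Other genes of the list went another way: Saa1 was highest in LiK normal diet 2 at 405 CPM, and the fibrinogen genes Fga, Fgb and Fgg in LiKM ACR 3. The part of the acute phase was not tested.

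Of 8 genes that glucocorticoids induce, 0 were called in any of the 5 comparisons. Fkbp5 was highest in LiKM normal diet 1 at 127 CPM, but it had 73.5 in LiKM ACR 1, 33.0 in LiK ACR 1 and 68.3 to 81.6 in normal-diet LiK livers. Tat was highest in LiKM ACR 2 at 3030 CPM. Among 8 retinoid response genes, of which 7 were tested, Cyp26a1, which retinoic acid induces and which degrades it, was lower on ACR in every library of both strains. It went from 2.77 ± 0.152 to 0.319 ± 0.131 CPM in LiK (8.43-fold, edgeR adjusted p = 0.017) and from 4.02 ± 1.3 to 0.702 ± 0.256 in LiKM (log2 -2.5, edgeR adjusted p = 0.0609). Tgm2 was higher in normal-diet LiKM livers (1.76-fold, edgeR adjusted p = 0.00507). Slc39a4 was higher than in normal-diet LiK livers both where Cyp26a1 was high, in normal-diet LiKM livers, and where it was low, in both strains on ACR. Cyp26a1 had 3 to 7 counts a library in ACR-fed LiK livers, and a link between these genes was not tested.

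Mtf1 (chromosome 4, 124802104 to 124849800, plus strand) stood at 25.2, 24.4 and 25.8 CPM in normal-diet LiK livers and at 18.3, 23.6 and 23.3 in ACR-fed ones. Among LiKM livers the values were 26.3, 21.7 and 16.5 CPM without the drug and 23.5, 21.3 and 17.2 with it. The LiK libraries on the normal diet lay close together and above those on ACR, a 1.16-fold difference that is described only, the LiKM normal diet libraries spanned both, and those of ACR-fed LiKM lay below normal-diet LiK. The strains differed by log2 -0.22 on the normal diet (SE 0.17, edgeR adjusted p = 0.375) and -0.07 on ACR (edgeR adjusted p = 0.824), and the diets in LiKM by -0.06 (edgeR adjusted p = 0.991). LiKM normal diet 1, the library richest in metallothionein mRNA, had the highest Mtf1 value, but LiK ACR 1, also rich, had 18.3 CPM.

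Values of Slc30a1, Slc30a10 and Mtf1 are uncertain to the extent that reads were shared with a gene on the opposite strand. Their exons overlap those of 1700034H15Rik by 468 bases, Gm2061 by 533 and 1110065P20Rik by 721, and their deposited values were not whole in 8, 6 and 7 of 12 libraries. The overlapping genes had few counts in comparison, 11.6 to 34.6, 15.5 to 80.5 and 50.5 to 112 a library, against 477.5 to 1016.5 in Slc30a1, 421.5 to 1337 in Slc30a10 and 207 to 438.5 in Mtf1. Mt2 overlaps Gm45774 by 432 bases, and its values were whole in all libraries.

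None of the other genes of zinc handling passed the test in any comparison. Of 19 further genes, 10 importers, 7 exporters and the metallothioneins Mt3 and Mt4, 14 passed the filter and 0 were called in any of the 5 comparisons. The shares of all genes called were 21.8% and 9.79% between strains on the normal diet and on ACR, 0.0% and 0.195% for the diet in LiKM and in LiK, and 0.0072% for the interaction. In this fit of all 12 libraries only the strain comparisons thus had a background against which 0 of 14 can be read. For the diet in LiK 812 genes were called with only the groups compared, and calls among the 14 under that setting are not given. Their median log2 fold changes were 0.07 and -0.06 between strains on the normal diet and on ACR, -0.02 for the diet in LiKM and 0.02 in LiK. Slc39a1, an importer found in most cells, had 69.2 ± 6.89 CPM in normal-diet LiK livers, 79.4 ± 2.3 on ACR, 66.4 ± 4.2 in normal-diet LiKM livers and 68.6 ± 6.1 on ACR. Slc39a7, which releases zinc from the endoplasmic reticulum, kept within 59.6 to 79.3 CPM in all libraries. Per kilobase these importers, at 30.0 and 27.7 CPM over the 12 libraries, stood level with Slc39a14 at 27.2. In CPM they stood at 70.9 and 71.6, against 287 for Slc39a14. The exon length used for Slc39a14, 10.55 kilobases, joins all its annotated exons, so its level per kilobase is a low estimate if shorter transcripts prevail. Slc30a9 had 51.5 to 96.2 CPM, and Slc30a7, which fills vesicles of the secretory pathway, had a mean of 33.2. Mt3 and Mt4, the metallothioneins of brain and squamous epithelium, were at 0 in all libraries apart from 2 counts of Mt3 in LiKM normal diet 1.

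Slc39a10, an importer of the plasma membrane singled out after its values were seen, had the largest strain difference among these genes on ACR. It had 3.24 to 4.79 CPM in LiK and 9.64, 12.1 and 5.12 in LiKM, a 2.23-fold difference that did not pass (log2 1.16, SE 0.38, edgeR adjusted p = 0.0747). In normal-diet LiKM it was at 13.1 CPM in the library highest in metallothioneins and at 5.99 and 4.93 in the others.

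**Figure D5:**
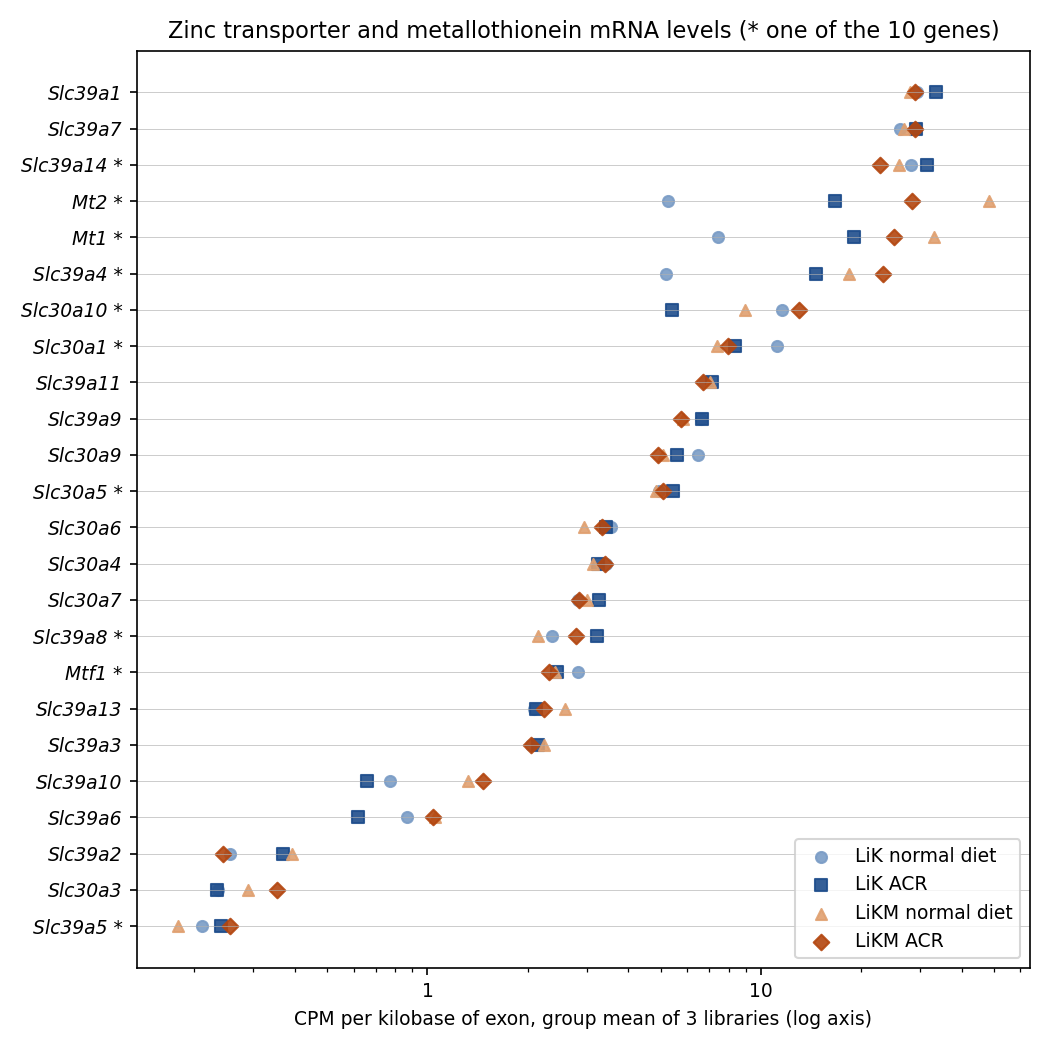
Group mean levels (x axis, CPM per kilobase of exon, log axis) of the 24 genes of zinc handling that passed the filter (y axis, ordered by the mean over all libraries; an asterisk marks the 10 genes), with colour and shape giving the group of 3 libraries. Symbols of the 4 groups lie close together for most genes and widely apart for Mt1, Mt2 and Slc39a4.

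Some genes of iron and copper handling were lower in normal-diet LiKM livers. Of 14 on the list, 5 were called lower and 0 higher, beside 8.61% and 13.2% of all genes, with a median log2 fold change of -0.28. Cell markers moved in the same comparison, with all 8 hepatocyte markers below 0 (3 called lower, median -0.64) and 8 of 8 bile duct markers called higher, and their part was not tested. With library size alone as scaling the median of all genes was 0.405 and 115 were called lower, where TMM factors gave 1195. The values of the 14 genes under that scaling are not given. Hamp, the hormone hepcidin that limits iron release, fell 2.56-fold, from 776 ± 149 to 303 ± 115 CPM (edgeR adjusted p = 0.00594). Atp7b, the copper exporter to bile, fell 1.62-fold (edgeR adjusted p = 0.00639), the copper importer Slc31a1 1.46-fold (edgeR adjusted p = 0.0109), the iron sensor Tfr2 1.48-fold (edgeR adjusted p = 0.0135) and the iron exporter Slc40a1 1.45-fold (edgeR adjusted p = 0.0478). On ACR Atp7b was again lower (1.53-fold, edgeR adjusted p = 0.0222) and Slc11a2, an importer of iron and manganese, was higher (1.35-fold, edgeR adjusted p = 0.0425). None of the 14 was called for the diet in either strain or for the interaction.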

How the data were processed

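Poly(A) RNA of 12 livers was sequenced with a stranded kit, per the labels' protocols. The deposited values are expected counts per gene, made by the authors with featureCounts 2.0.0 on mm10 per the submitters' processing notes, and 18.9% of the values above 0 were not whole. No source used here gives the aligner, the annotation, the strand setting or the treatment of shared reads.

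Counts were rounded to whole numbers, scaled with TMM factors and filtered by group (edgeR's filterByExpr), which left 13880 of 24421 genes. All 12 libraries were fitted with 1 coefficient per group by edgeR 4.0.16 (robust quasi-likelihood test, R 4.3.3), with p-values adjusted over all tested genes (Benjamini-Hochberg) at 0.05. An SE is the log2 fold change divided by the square root of F. Log2 CPM used a prior count of 2. CPM per kilobase used the exon length of the mm10 annotation, with all annotated exons of a gene joined. Libraries held 10124813 to 18647156 counts. Every pair of libraries of 1 group differed by more than sampling noise, with chi-square values of 15.7 to 65.1 for each degree of freedom. On simulated data for ACR in LiKM with 13613 genes the test called 64 of 100 genes changed 2-fold, 89 of 100 changed 4-fold and 5 unchanged genes. The simulated libraries were independent, with 1 spread per gene for all groups and changes only in genes with a mean CPM of at least 1. Same-numbered LiKM mice deviated together in the real data, so these shares need not hold there.

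The labels give groups the same replicate numbers and do not say what a number shares. Deviations from the group means correlated between same-numbered LiKM mice of the 2 diets (0.37, 0.22 and 0.48) and at -0.1 to 0.077 for other pairs of groups, so that a replicate block was applied within LiKM as an alternative. In strain comparisons that block leaves the spread between LiKM numbers out of the error.

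The 10 genes and the gene lists were chosen with earlier results of these data known. All 10 are described in every comparison. Of the other zinc and metal genes those called are named, or else those of highest mean CPM, 2 per list, with up to 4 of each list set beside them and the 5 genes of the most alike pattern for Slc39a4 and for Mt1 at a mean CPM of at least 1. Alternatives were library size alone, DESeq2 size factors, no filter, the Wald test of DESeq2 1.42.0, blocks by number or by identifier prefix, only the groups compared, leaving out each library in turn and, added after the clock genes were seen, leaving out 3 LiKM libraries. A result of the retinoid list is not reported here.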

Additional observations from a re-analysis of the deposited data

How the results depend on the processing

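There were 50 pairs of a gene with a comparison. Tested pairs were scored by direction and call. Pairs without a test were all 10 in LiK and those of Slc39a4 with LiK libraries. They were scored by whether the value moved less than the gene's pooled SD within groups. By these scores 16 pairs stayed the same under every alternative run. In 23 tested pairs the direction turned under at least 1, none of them at a called value. Some untested pairs turned as well: for the diet in LiK, Slc39a5 ran from -0.38 to 0.49 and Slc30a5 from -0.15 to 0.27. With library size alone, under which the typical gene differed between strains by 0.405 on the normal diet, the strain difference on the normal diet turned to 0.031 for Slc39a5, 0.26 for Slc39a8, 0.26 for Slc39a14, 0.38 for Slc30a5, 0.018 for Slc30a10 and 0.16 for Mtf1. On ACR it turned to 0.035 for Slc30a1, 0.004 for Slc30a5 and 0.037 for Mtf1, the diet difference in LiKM to -0.044 for Slc30a1 and -0.10 for Slc30a5, and the interaction to -0.12 for Mtf1. With the identifier prefix as a term the values were 0.037 for Slc39a8 on the normal diet, 0.026 for Slc30a5 on ACR and 0.34 for the interaction of Slc30a5. With only the groups compared, Slc30a5 on the normal diet was 0.025, and Slc39a5 did not pass the filter and has no value. With LiKM ACR 2, LiKM ACR 3 and LiKM normal diet 3 left out for their clock genes, Slc30a5 was 0.024 on the normal diet, Slc30a1 0.078, Slc30a5 0.12 and Mtf1 0.10 between strains on ACR, Slc39a8 -0.10 and Mt1 0.26 for the diet in LiKM, and Slc30a5 0.10 for the interaction.

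Leaving out each library in turn gave log2 strain differences on the normal diet from -1.31 to 0.01 for Slc39a5, -0.21 to 0.082 for Slc30a5, -0.64 to -0.24 for Slc30a10 and 1.01 to 3.72 for Mt2. On ACR they ran from -0.24 to 0.60 for Slc39a5, -0.47 to 0.016 for Slc39a8, -0.24 to 0.071 for Slc30a5, -0.67 to 0.83 for Mt1, -0.21 to 1.70 for Mt2 and -0.18 to 0.042 for Mtf1. Diet differences in LiKM ran from -0.35 to 0.10 for Slc39a14, -0.07 to 0.27 for Slc30a5, -1.48 to 1.17 for Mt1, -1.76 to 1.46 for Mt2 and -0.21 to 0.13 for Mtf1. Interactions ran from -0.33 to 0.16 for Slc39a8 and -0.21 to 0.11 for Slc30a5.

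Over all genes, 3031 were called between strains on the normal diet, 4831 with library size alone (4716 higher, 115 lower) and 1658 to 3384 without 1 library. On ACR 1359 were called, 2150 by DESeq2, 2473 with the replicate block within LiKM, 555 without the 3 libraries and 312 to 1695 without 1 library. For the diet in LiKM 0 were called, 79 by DESeq2, 9 with the replicate block within LiKM, 1 without the 3 libraries and 0 to 5 without 1 library. For the diet in LiK 27 were called, 397 by DESeq2, 701 with the replicate block within LiKM, 16 with the prefix, 812 with only the groups compared, 624 without the 3 libraries and 0 to 108 without 1 library. For the interaction 1 was called, 16 with library size alone, 2 without a filter, 160 by DESeq2, 2 with the replicate block over all groups, 260 with it within LiKM, 0 with the prefix, 15 without the 3 libraries and 0 to 20 without 1 library. The cause of these shifts was not tested. The block changed the call of Mt1 on the normal diet, Slc39a14 on ACR and the interaction of Slc30a10, as given above, and of no other gene of the 10. Slc39a5 has 2 to 13 counts a library.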
